A study of Mus musculus with 8 samples.

Results

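The culture by day interaction asks which genes changed over time differently in 2 cultures of mouse astrocytes. It was taken for each gene as the change from day 5 to day 32 in MGS minus the same change in CV. CV is the conventional culture and MGS is a second culture whose letters the labels do not explain; the sample descriptions call its libraries soft and those of CV hard. All 8 libraries of the series were used, 2 from each culture at each of the days, all from mouse astrocytes, and no drug, genotype or strain separates the groups in the labels used here. Of 23401 gene IDs, the 14866 with a TPM (a length-adjusted share of the library's transcripts) of at least 1 in at least 2 libraries were tested. Levels are scaled TPM, that is, the deposited TPM divided by a size factor of each library, and they are given for replicate 1 and then replicate 2. Changes are differences of log2(scaled TPM + 1), a scale on which low genes change by less than their levels do. A gene is called higher where its change over time was greater in MGS than in CV, and lower where it was smaller, at an adjusted p under 0.05 (limma, Benjamini-Hochberg over all genes tested).

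Astrocytes take up glutamate and GABA, buffer water and ions at blood vessels, and secrete lipids and factors that act on synapses. Cultures prepared from brain tissue usually carry some microglia, the resident macrophages of the brain, and these can multiply in culture. Astrocytes in culture also respond to inflammatory signals and to the stiffness of what they grow on, with changes in filament, secreted and contractile genes.

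Aligned sequence, estimated from coverage and FPKM, ranged from 2.15 to 4.69 gigabases per library. Between 12880 and 14402 gene IDs reached 1 TPM. The SD of the log2 difference between replicates was 0.198 at day 5 and 0.186 at day 32 in MGS, and 0.318 and 0.481 in CV. The model shares 1 spread among the groups, so the standard errors of changes within CV, whose replicates differed most, are smaller than its own replicates would give, and those of changes within MGS larger. Whether replicates came from separate cultures is not stated in the labels, and the p-values then measure only how far these libraries spread, which may be technical. The astrocyte label was checked against 4 of its defining genes. The filament gene Gfap stood between 867 and 14689 scaled TPM and the water channel gene Aqp4 between 91.5 and 669. The glutamate transporter gene Slc1a3 stood between 208 and 515 and the folate enzyme gene Aldh1l1 between 127 and 422. All 4 were therefore present in all 8 libraries. The transporter gene Slc1a2 and the calcium-binding protein gene S100b, also set as defining genes, were lowest in CV at day 32, with levels given below. Levels of Gja1, Aldoc and Sox9, the other defining genes, are not given here. Markers of other cell types were present too, and their levels stand beside the results they move with.

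The interaction was called for 8966 genes, 60.3% of those tested, with 4267 higher (28.7%) and 4699 lower (31.6%). Of these, 2581 and 2740 differed at least 2-fold. Counts of called list members below are to be read against the shares of 28.7% higher and 31.6% lower. Over all genes the median interaction was -0.068. When the deposited TPM were used without size factors, that median moved to 0.65 and 7395 genes were called higher and 1831 lower, a share of 80.2% higher against 47.6% with size factors. Of 148 genes chosen by the naming rule, 27 had an interaction smaller by over 1.5 times or reversed under that setting, and 20 under quantile normalization. The direction of a small interaction therefore depends on the scaling, and changes below are relative to the size factors.

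Both cultures changed over time. In MGS 22.9% of the genes rose and 22.7% fell, and in CV 27.3% rose and 26.9% fell. The cultures also differed more widely at the later day. At day 5, 28.6% of genes were higher and 24% lower in MGS than in CV, and at day 32 35.1% were higher and 34.9% lower. Of the genes called higher in the interaction, 1311 (8.82% of all genes tested) rose in MGS and fell in CV, 1459 fell in CV with no called change in MGS, and 983 rose in MGS with no called change in CV. Of those called lower, 1034 (6.96%) fell in MGS and rose in CV, 1822 rose in CV with no called change in MGS, and 1097 fell in MGS with no called change in CV. The remaining calls, 514 higher and 746 lower, moved the same way in both cultures to a different extent or had no called change in either. Without CV day 32 replicate 2, the opposite classes held 2188 genes that rose in MGS and fell in CV and 2433 that did the reverse, and without MGS day 5 replicate 1 they held 525 and 312, so the sizes of these classes rest on single libraries.

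**Figure D1:**
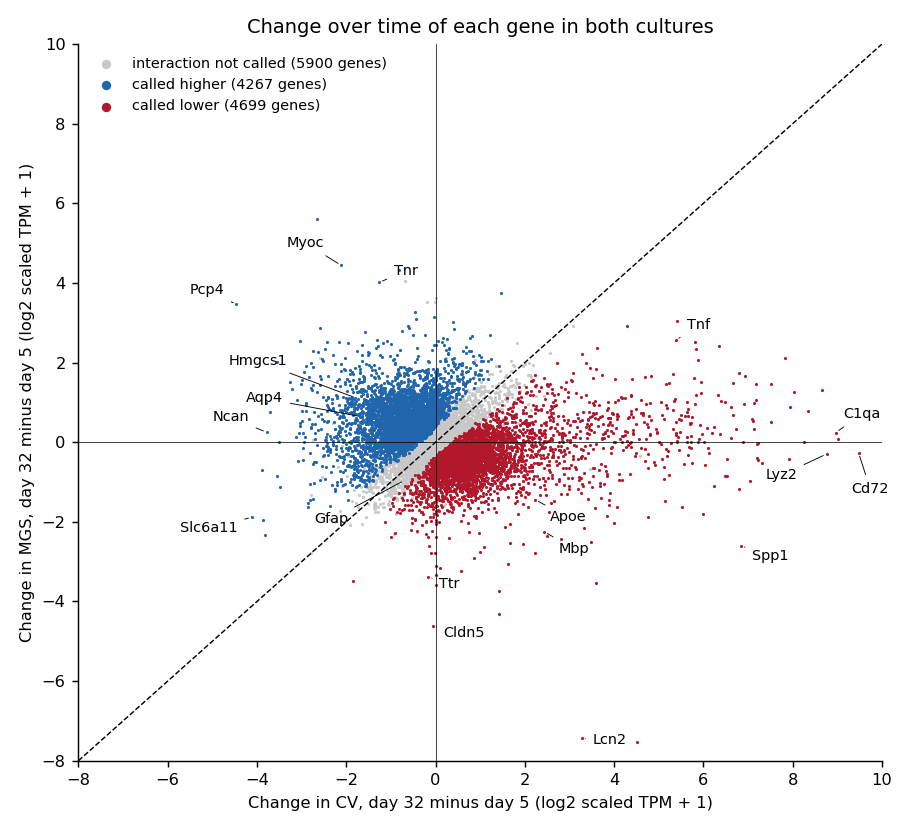
Change from day 5 to day 32 of each of the 14866 genes in CV (x axis) and in MGS (y axis), as the difference of mean log2(scaled TPM + 1) of 2 libraries a group; points on the dashed line changed equally, and blue and red points were called higher (4267 genes) and lower (4699). Myeloid genes such as Cd72, Lyz2 and C1qa lie far to the right near 0 on the y axis, Lcn2 lies at the bottom, and Pcp4 and Myoc lie at the upper left.

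The genes with the most negative interaction were mostly genes of microglia and macrophages that rose in CV from low levels at day 5 to high levels at day 32, while most held their level or fell in MGS. In bulk libraries, more cells of a type and more RNA per cell cannot be told apart. Lyz2, the lysozyme gene of myeloid cells (chromosome 10, 117277541 to 117282272, minus strand, in the coordinates of the files, mm10), stood in MGS at 657 and 677 at day 5 and 553 and 534 at day 32. In CV it stood at 29.2 and 27.2 at day 5 and 13334 and 11949 at day 32. The interaction of Lyz2 was -9.05 (SE 0.17, adjusted p = 9.87e-07), with no called change in MGS. At day 5 Lyz2 was therefore higher in both MGS libraries than in CV, and at day 32 it was lower. Lyz1, its neighbouring near-identical copy, followed with -7.67 (SE 0.49, adjusted p = 3.76e-05), but reads shared between the copies make both values uncertain. Cd72, a receptor of B cells and myeloid cells (chromosome 4, 43447724 to 43454626, minus strand), was at 0.106 and 0 in CV at day 5 and at 867 and 643 at day 32. In MGS Cd72 stayed between 3.97 and 5.28 in all 4 libraries, and its interaction was -9.74 (SE 0.22, adjusted p = 2.03e-06).

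The 3 genes for the chains of C1q, the complement protein made in the brain mainly by microglia, lie beside each other on chromosome 4 and moved together. C1qa (chromosome 4, 136895916 to 136898844, minus strand) stood in CV at 2.71 and 2.67 at day 5 and 2357 and 1435 at day 32. In MGS it stood at 100.2 and 104 at day 5 and 124 and 117 at day 32, so MGS differed by little between the days. Its interaction was -8.72 (SE 0.30, adjusted p = 3.33e-06). C1qb was at 4.18 and 2.95 and then 2905 and 1881 in CV (interaction -8.93), and C1qc at 4.87 and 4.9 and then 2095 and 1548 (interaction -8.26). None of the 3 had a called change in MGS. In every one of them CV at day 32 replicate 1 was the higher of its pair. Ly86 (-8.33), a partner of an innate immune receptor, and the leukocyte surface gene Cd52 (-7.57) rose in CV with no called change in MGS. Wfdc17, a secreted protein gene, fell in MGS from 15.7 and 15.5 to 6.35 and 6.48 and rose in CV from 1.12 and 0 to 196 and 134 (-7.97).

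Of the homeostatic microglia markers, a list of 30 genes of which 29 are in the files and 27 were tested, 25 were called lower and 1 higher. Their median interaction was -6.80, against -0.068 for all genes. The median change over time was 0.08 in MGS and 7.05 in CV. None of the 27 passed the filter on low values through a single group. Over all genes 525 did, and the interaction of such a gene follows in part from the filter. Tmem119, a membrane protein used as a marker of microglia, fell in MGS from 53.4 and 49 to 13.5 and 14.3 and rose in CV from 0.72 and 0.297 to 101 and 86.1 (interaction -7.78, SE 0.22, adjusted p = 2.66e-06). P2ry12, the purine receptor of resting microglia, rose in both cultures, from 0.912 and 0.934 to 3.06 and 2.72 in MGS and from 0.0676 and 0.21 to 10.2 and 12.7 in CV, with an interaction of -2.43 (SE 0.19, adjusted p = 9.22e-05). The fractalkine receptor gene Cx3cr1 (-5.06), the growth factor receptor gene Csf1r (-5.70) and Fcrls (-7.35) had called interactions as well, and rose over time in MGS by 1.73, 2.12 and 1.31 on the log2 scale against 6.79, 7.82 and 8.66 in CV. The gene called higher was Sall1, a transcription factor gene of microglia that is also expressed in other neural cells (2.33). The receptor gene Gpr34 was not called (-0.57). The summed level of the 29 markers in the files was 1506 to 1529 at day 5 and 1429 to 1459 at day 32 in MGS, and 182 to 185 and 23085 to 28602 in CV. Lyz2 alone made up 657 and 677 of the sums of MGS at day 5 and 553 and 534 at day 32. In CV it made up 13334 and 11949 of the sums at day 32. The rise of the sum in CV therefore rests in large part on Lyz2, a gene of myeloid cells in general. The sum differed by little between the days in MGS, where 10 of the 27 genes rose and 3 fell, and was higher in CV at day 32 than in any other group. Of the 29 markers, the lectin gene Siglech was listed at 0 in all 8 libraries, and the fructose transporter gene Slc2a5 in both of CV at day 32. A second version of the fit, here named the length and GC correction, first removed from each library any trend with the length or GC content of transcripts. In it 25 markers were called lower, with a median of -5.87. Where that fit made a gene's value below smaller by over 1.5 times, the value from it follows as corrected.

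Genes that microglia switch on in disease also had mostly negative interactions. Spp1, the secreted phosphoprotein osteopontin (chromosome 5, 104435111 to 104441053, plus strand), fell in MGS from 1194 and 1246 to 209.7 and 191. In CV it rose from 47.5 and 44.4 to 5545 and 5232, giving an interaction of -9.45 (SE 0.17, adjusted p = 9.87e-07). Trem2, a lipid-sensing receptor gene, fell in MGS from 45 and 43.6 to 20.7 and 23.6 and rose in CV from 3.23 and 1.79 to 596 and 348 (interaction -8.02). Both genes thus moved in opposite directions in the cultures. Tyrobp, which encodes the signalling partner of Trem2, had no called change in MGS (67.9 and 71.6 and then 47.8 and 48.5) and rose in CV from 6.07 and 4.07 to 1222 and 728 (interaction -7.82). Of 27 disease-associated microglia genes tested, 23 were called lower and 1 higher (median -3.49), and 16 fell in MGS, against 3 that fell and 10 that rose of the 27 homeostatic markers. The list shares genes with the homeostatic list, so the counts are not independent. Border-associated macrophages, which live at the surfaces of the brain, were represented by 10 tested genes of 15 in the files, and 8 were called lower and 1 higher. Among them Folr2, a folate receptor gene, had an interaction of -6.26, Ms4a7 had -5.71 with a rise in both cultures, and the platelet factor gene Pf4 was listed at 0 in both CV libraries at day 5 and stood at 64.6 and 37 at day 32. The gene called higher was Lyve1, a hyaluronan receptor gene that passed the filter through MGS at day 32 alone.

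Promoter sequences show what some of these myeloid genes carry upstream of their start sites. They are RefSeq promoters of GRCm38.p6, and 10769 of them, each of a gene tested, were searched. Of 15 short motifs searched on both strands in the 250 bases before each start, GAGGAA, the core bound by the myeloid transcription factor PU.1 in the literature on mouse and human cells, was in 11 of 19 homeostatic microglia genes with a promoter, against 25.8% of all. Among genes called lower in the interaction 28% held it, and among those called higher 25.3%. GAAANNGAA, a form of the interferon-stimulated response element, was in 10 of 20 interferon-stimulated genes against 7.49% of all. These matches are descriptions and not evidence of binding. The 100 bases before the start of 6 genes are shown 5′ to 3′ along the gene's strand, with a match to either motif, read on either strand, in capitals. They were chosen after the matches had been seen. They lie at chr4:43454627-43454726 (minus strand), chr4:136886201-136886300 (minus), chr17:48346301-48346400 (plus), chr10:117282273-117282372 (minus), chr3:95526686-95526785 (plus) and chr5:120907526-120907625 (minus).
Cd72: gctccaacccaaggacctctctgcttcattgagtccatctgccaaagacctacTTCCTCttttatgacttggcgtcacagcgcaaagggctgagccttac
C1qb: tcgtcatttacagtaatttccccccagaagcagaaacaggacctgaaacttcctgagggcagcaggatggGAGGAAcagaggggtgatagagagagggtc
Trem2: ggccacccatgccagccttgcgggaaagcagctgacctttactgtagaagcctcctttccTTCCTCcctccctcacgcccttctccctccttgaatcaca
Lyz2: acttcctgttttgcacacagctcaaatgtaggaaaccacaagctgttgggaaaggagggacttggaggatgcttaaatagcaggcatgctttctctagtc
Ctss: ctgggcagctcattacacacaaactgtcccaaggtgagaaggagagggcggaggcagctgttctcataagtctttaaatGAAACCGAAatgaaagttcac
Oas1a: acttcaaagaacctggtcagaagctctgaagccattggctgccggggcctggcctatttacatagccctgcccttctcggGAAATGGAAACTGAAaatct
The match to GAGGAA begins 47 bases before the start in Cd72, 30 in C1qb and 40 in Trem2. The interferon element begins 21 bases before the start of Ctss, and the promoter of Oas1a holds a pair of overlapping copies that begin 20 and 14 bases before it. The Lyz2 window holds neither in these letters.

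Lysosomal, antigen presentation, complement and interferon genes had mostly negative interactions, and in each of these lists the median change was greater in CV than in MGS. Ctss, the cathepsin of antigen-presenting cells whose promoter is shown above, fell in MGS from 52.2 and 53.2 to 41.1 and 38.7 and rose in CV from 4.65 and 5.3 to 948 and 807 (interaction -7.59, SE 0.16, adjusted p = 1.38e-06). Of 31 lysosome and cathepsin genes 25 were called lower and 2 higher (median -1.49), 22 and 3 after the length and GC correction. Among them were the macrophage protein gene Cd68 (-4.76) and the cathepsin gene Ctsh (-4.64). All 17 called genes of the 19 tested for class I antigen presentation were lower (median -2.42), 18 rose in CV and 12 fell in MGS. The class I heavy chain gene H2-D1, one of a family of closely related genes, went from 416 and 407 to 222 and 228 in MGS and from 74.5 and 55.4 to 717 and 515 in CV (interaction -4.09). The immunoproteasome gene Psmb8 had -4.92 and the nonclassical class I gene H2-T23 had -4.38. Class II genes behaved less uniformly. Of 7 tested 3 were lower and 1 higher, whereas 2 were lower and 3 higher in the corrected fit. H2-DMa (-1.18, corrected -0.41) and H2-DMb1 (-2.20, corrected -1.16), which help load peptides, were among the lower, but H2-DMa was not called with TPM as deposited (-0.39, adjusted p = 0.123). Cd74, the invariant chain gene, was higher in MGS than in CV in every library of the same day, at 19.1 and 17.9 at day 5 and 32.9 and 32.7 at day 32 in MGS and 0.445 and 0.659 at day 5 and 7.21 and 3.36 at day 32 in CV. Its interaction of -1.15 (SE 0.38, adjusted p = 0.0343) was lost in 6 of 8 fits without 1 library and stood at -0.071 after the length and GC correction.

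Interferon-stimulated genes rose in CV, and most changed less in MGS. Of 28 tested, 16 rose in MGS and 26 in CV, and 24 had a lower and 2 a higher interaction (median -1.92, and -2.01 after the length and GC correction). Ifi27l2a, a small interferon-induced membrane protein gene, was at 62.2 and 67.4 at day 5 and 65.2 and 60.6 at day 32 in MGS. In CV it stood at 5.42 and 2.78 at day 5 and 962 and 551 at day 32, and its interaction was -7.25 (SE 0.44, adjusted p = 3.03e-05). The 2',5'-oligoadenylate synthetase gene Oas1a followed with -5.43 and the tetherin gene Bst2 with -4.40. The 2 genes called higher, Ifit2 (1.61) and Cmpk2 (1.33), rose by 1.10 and 1.36 in MGS. The summed microglia level given above was higher at day 32 in CV and differed by little in MGS, and its part in these results was not tested.

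Of 20 complement genes 15 were called lower, the C1q genes among them. C3, the central complement component, fell in MGS from 268 and 272 to 203 and 210.1 and rose in CV from 5.26 and 4.1 to 54.3 and 59.3 (interaction -3.74, SE 0.17, adjusted p = 8.4e-06). Its MGS libraries remained above those of CV at both days. Of 21 chemokine genes tested 18 were lower and 0 higher by limma. Cxcl16 fell in MGS from 25.4 and 26.6 to 14.2 and 12.4 and rose in CV from 2.42 and 2.14 to 131 and 97.8 (-6.04). With no adjustment, 0 chemokine genes had a positive interaction at a p under 0.05. Of 22 cytokine and NF-kB genes 14 were lower and 1 higher, and the adhesion molecule gene Icam1 was among the lower (-2.76). The inflammatory mediators Il1b and Tnf rose in both cultures. Il1b went from 0.536 and 0.483 to 3.93 and 3.33 in MGS and from 0 in both libraries to 59.9 and 49.1 in CV, and Tnf from 4.25 and 5.06 to 32.4 and 32.2 in MGS and from 0 and 0.114 to 46.1 and 40.2 in CV. Both were called lower, Tnf at -2.82. With 0.1 or 5 added to the level in place of 1, Tnf was at -5.43 or -1.30. At day 32 the Tnf levels of MGS lay below, but near, those of CV. Tgfb1, the gene of the growth factor TGF-beta 1, had -4.26 and Tgfbi, a secreted protein gene that TGF-beta induces, -4.25. Adam8, a membrane protease gene of leukocytes, was at 23.4 and 23.5 at day 5 and 10.7 and 10.3 at day 32 in MGS and rose in CV from 2.95 and 3.24 to 299 and 314 (-7.32).

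Lcn2, which encodes lipocalin-2, an iron-scavenging secreted protein and a marker of reactive astrocytes, had the most negative interaction of the genes that the naming rule chose (chromosome 2, 32384637 to 32387739, minus strand). In MGS it fell from 701 and 685 to 3.29 and 2.77. In CV it was at 0.674 and 0 at day 5 and at 12.4 and 10.8 at day 32. The interaction was -10.71 (SE 0.32, adjusted p = 2.87e-06). At day 32 both CV libraries lay above both MGS libraries, the reverse of day 5. Of 33 reactive astrocyte genes tested 23 were called lower and 5 higher (median -1.54), 17 fell in MGS and 18 rose in CV. Those lower with a fall in MGS included the ferrireductase gene Steap4 (-4.68), the chitinase-like gene Chi3l1 (-3.81) and the pentraxin gene Ptx3 (-2.81). Cd14 (-7.37) and Srgn (-4.99), which rose in CV by 6.53 and 5.31, are also genes of myeloid cells. The 5 called higher were Aspg (1.20), Il6st (1.76), Emp1 (1.55), B3gnt5 (1.24) and Cd109 (1.44). The summed level of the microglia markers moved with the CV rise of this list, and its part was not tested.

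**Figure D2:**
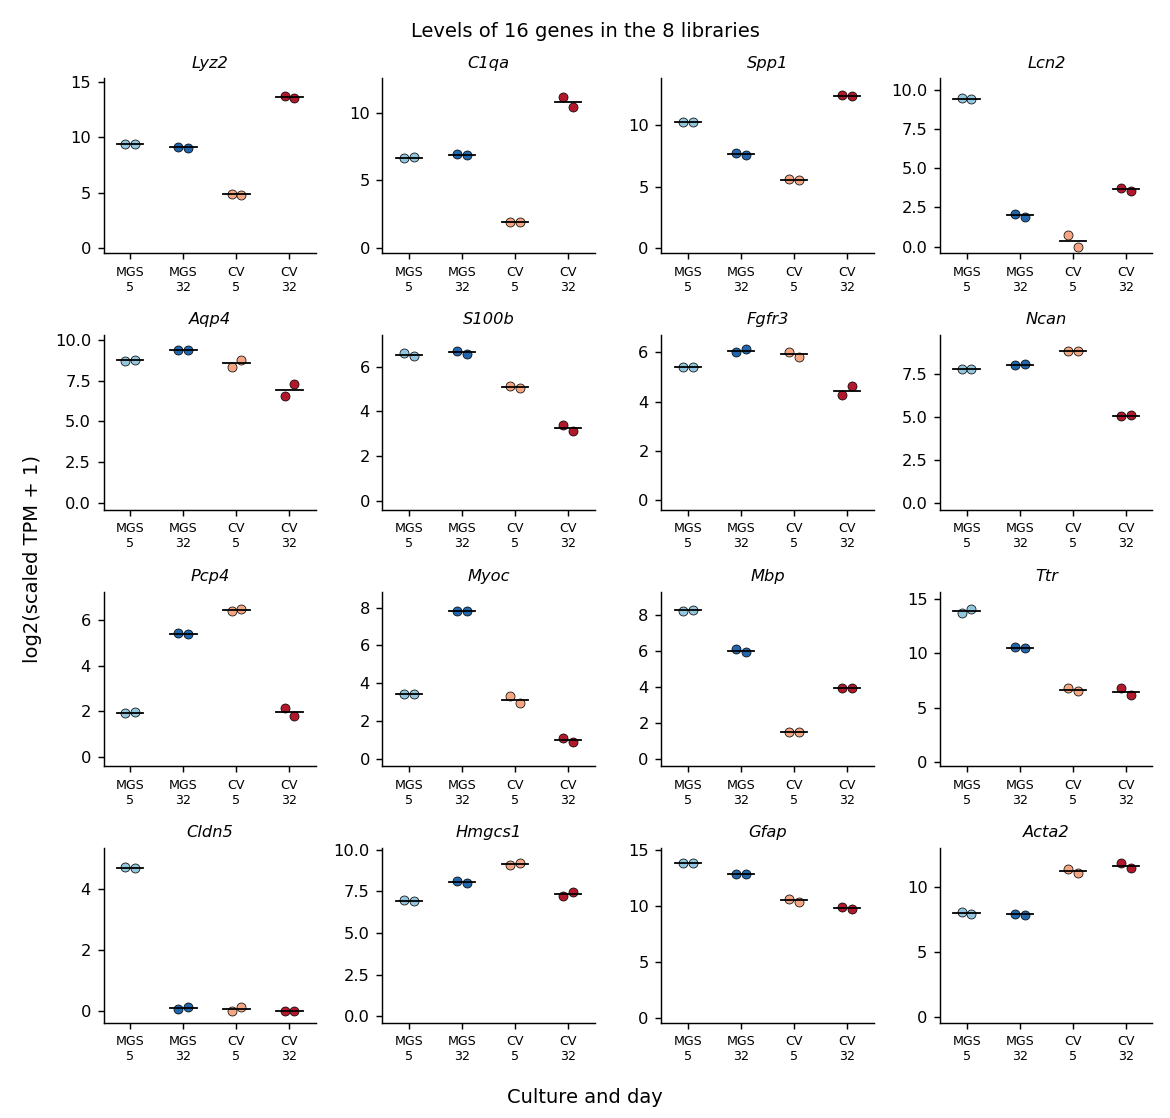
Level of 16 genes in each of the 8 libraries, as log2(scaled TPM + 1) on axes that differ between panels, by culture and day; points are libraries and bars are means of 2. Lyz2, C1qa and Spp1 are lowest in CV at day 5 and highest in CV at day 32, Lcn2 and Cldn5 are high in MGS at day 5 alone, and Aqp4, S100b and Ncan are lowest in CV at day 32.

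Genes for transmitter uptake and for water and ion handling, the working genes of mature astrocytes, mostly fell in CV and held or rose in MGS. Aqp4 went from 422 and 434 to 669 and 664 in MGS. The change in MGS was not called. In CV Aqp4 fell from 323 and 439 to 91.5 and 154. The libraries of MGS at day 32 lay above and those of CV at day 32 below all others, and the interaction was 2.29 (SE 0.36, adjusted p = 0.00186). S100b, a calcium-binding protein gene, had no called change in MGS (96.8 and 89.2, then 103 and 95.6) and fell in CV from 34.6 and 32.4 to 9.66 and 7.75 (interaction 1.93, SE 0.17, adjusted p = 0.000155). The GABA transporter gene Slc6a11 fell in both cultures, from 42.3 and 46 to 11 and 11.4 in MGS and from 18.6 and 17.3 to 0.119 and 0.0746 in CV (2.23). Its CV level at day 32 was close to 0. With 0.1 or 5 added to the level in place of 1, the interaction was 4.56 or 0.57 and stayed called. Slc1a2, the main glutamate transporter of the forebrain, rose in MGS from 44.7 and 46.8 to 64.1 and 63.5 and fell in CV from 21.8 and 27.1 to 8.31 and 7.05, with an interaction of 2.02 (SE 0.18, adjusted p = 0.000175). That value fell to 0.52 after the length and GC correction, at an adjusted p of 0.111 by limma.

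Of 13 glutamate and GABA genes tested 9 were called higher and 0 lower by limma (median 0.90). In CV 10 fell and 0 rose, and in MGS 3 rose and 3 fell. At an unadjusted p under 0.05 by limma, 0 had a negative interaction. The 1 with a negative value was Glul, glutamine synthetase (-0.19, unadjusted p = 0.27 by limma). After the length and GC correction 8 were higher and 2 lower. The fall in CV went with the microglia markers, whose 29 genes held 0.0185 to 0.021% of the deposited TPM in CV at day 5 and 2.03 to 2.16% at day 32, against 0.141 to 0.144% and 0.181 to 0.184% in MGS. It also went with the length trend of the CV libraries at day 32 that is given with the transcript lengths. Their part in the fall was not tested. Of 14 endfoot, water and ion genes 9 were higher and 1 lower (median 1.29, and 0.68 after that correction, with 7 higher and 0 lower). The potassium channel gene Kcnj10 (2.02) and the adhesion gene Hepacam (1.54) were among those higher. Of 28 other mature astrocyte genes 12 were higher and 6 lower. Fgfr3, a growth factor receptor gene, rose in MGS from 41.2 and 41.7 to 64.1 and 68.6 and fell in CV from 63.2 and 56 to 18.4 and 23.6 (2.13), and the glycogen-targeting gene Ppp1r3c had 2.15. Apoe, the lipid carrier that both astrocytes and activated microglia make, went the other way. It fell in MGS from 30812 and 30847 to 11239.7 and 11423 and rose in CV from 5136 and 3272 to 25434 and 14564 (interaction -3.67, SE 0.61, adjusted p = 0.00238), and its interaction was -1.60 with quantile normalization. The dystrobrevin gene Dtna, of the endfoot complex, rose in MGS and fell in CV (2.02, corrected 1.15). Among progenitor and neural stem genes 11 of 19 were higher and 2 lower. The stem cell genes Prom1 (1.96) and Msi1 (1.71) were among the higher, and both fell in CV.

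The classic astrocyte and contractile markers Gfap, Vim, Acta2, Ctgf and Slc1a3 were not called with size factors, but their calls depended on the setting. Gfap fell in both cultures, from 14689 and 14645 to 7588 and 7578 in MGS and from 1631 and 1357 to 981 and 867 in CV, and its interaction of -0.26 (SE 0.30, adjusted p = 0.473) was positive and called with TPM as deposited (0.57, adjusted p = 0.0162) and with quantile normalization (1.15, adjusted p = 0.00215), and positive but not called after the length and GC correction. The filament gene Vim (-0.43, SE 0.42, adjusted p = 0.403) was called higher with quantile normalization (1.59, adjusted p = 0.00144) and was positive, not called, with TPM as deposited. Acta2, smooth muscle actin, stood in MGS at 271 and 248 at day 5 and 245 and 238 at day 32 and in CV at 2741 and 2168 at day 5 and 3653 and 2809 at day 32. Its interaction of -0.50 (SE 0.26, adjusted p = 0.137) and that of the YAP/TAZ target gene Ctgf (-0.28, SE 0.15, adjusted p = 0.149) turned positive under all 3 settings. With quantile normalization both were called higher, Acta2 at 0.56, adjusted p = 0.0147 and Ctgf at 0.53, adjusted p = 0.0484, as was Ctgf with TPM as deposited (0.55, adjusted p = 0.0192). Without CV day 32 replicate 2 both were called lower, Acta2 at -0.69, adjusted p = 0.0197 and Ctgf at -0.33, adjusted p = 0.0408. For Slc1a3, the other main glutamate transporter gene, the interaction of 0.61 (SE 0.26, adjusted p = 0.0806) missed the threshold, while the gene fell in CV. After the length and GC correction the interaction was 0.30 and was not called (adjusted p = 0.126, limma). It was called higher with weights per group (adjusted p = 0.0439), with quantile normalization (1.43, adjusted p = 0.00933), with TPM as deposited (1.43, adjusted p = 0.0155) and without CV day 32 replicate 2 (0.85, adjusted p = 0.0046). Aldh1l1 was called lower (-0.75, SE 0.20, adjusted p = 0.0154), with a fall in MGS from 275 and 267 to 127 and 129.6. That call was lost in 4 of 8 fits without 1 library, and the value was 0.074 with TPM as deposited and -0.086, adjusted p = 0.554 with quantile normalization. The filament gene Nes was called higher at 0.48 (SE 0.17, adjusted p = 0.0474), lost in 5 of the 8 and at -0.032 after the length and GC correction.

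The genes with the largest positive interactions were a mixed group, and all but a few rose in MGS and fell in CV. Pcp4, a small calmodulin-binding protein gene of neurons (chromosome 16, 96467606 to 96525793, plus strand), rose in MGS from 2.79 and 2.87 to 41.4 and 41. In CV it fell from 82.4 and 87.4 to 3.4 and 2.46. The cultures thus exchanged levels, and the interaction was 7.92 (SE 0.19, adjusted p = 2.03e-06). Myoc, which encodes the secreted glycoprotein myocilin (chromosome 1, 162639150 to 162649694, plus strand), rose in MGS from 9.59 and 9.55 to 228 and 229.7 and fell in CV from 8.8 and 6.65 to 1.14 and 0.869 (6.56, SE 0.20, adjusted p = 2.87e-06). Inpp5j, an inositol phosphatase gene, rose in MGS from 1.09 and 1.18 to 40.1 and 43.2 (5.15). Grin3a, an NMDA receptor subunit gene, rose in MGS from 1.66 and 1.77 to 14.7 and 14.5 and fell in CV from 6.97 and 8.59 to 0.487 and 0.742 (4.96). Itgb8, the integrin chain that astrocytes use to activate TGF-beta, had 5.59 (SE 0.52, adjusted p = 0.000184). The glycosyltransferase gene Mgat5 (4.90), the ubiquitin ligase gene Cbl (4.83), the cadherin gene Cdh6 (4.80), Megf9 (5.03) and Prrg4 (5.46) also rose in MGS and fell in CV. Pfkfb3, a regulator of glycolysis, fell in CV from 61.2 and 63.5 to 1.24 and 8.33, with no called change in MGS (4.78). All 15 genes with the largest positive interaction under the naming rule were called after the length and GC correction. Their median transcript length was 7924 bases, against 1316 for the 15 with the largest negative interaction.

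Proteoglycans of the brain matrix had mostly positive interactions. Of 22 tested 13 were higher and 6 lower (median 1.34). Tnr, the tenascin of perineuronal nets, rose in MGS from 2.96 and 2.5 to 55.5 and 62.9 and fell in CV from 1.55 and 2.26 to 0.135 and 0.272 (interaction 5.28, SE 0.22, adjusted p = 6.9e-06). Acan, the aggrecan gene, rose in MGS from 0.15 and 0.167 to 8.56 and 9.27 and fell in CV from 0.334 and 0.39 to a listed 0 in both libraries. It passed the filter through MGS at day 32 alone, so its place among the 13 higher follows in part from the filter. Ncan, neurocan, was 220.1 and 222 and then 257 and 269 in MGS, with no called change, and fell in CV from 457 and 466 to 31.7 and 33.5 (4.03, SE 0.13, adjusted p = 3.19e-06). Xylt1, which starts the sugar chains of proteoglycans, had 5.57. The 6 lower were Dcn (-3.08), Lum (-1.20), Bgn (-1.22), Omd (-1.40), Gpc1 (-0.44) and Sdc4 (-1.50), the first 4 of them small leucine-rich proteoglycans of connective tissue. Thbs1, a synapse-promoting thrombospondin of astrocytes, rose in MGS from 22.1 and 23 to 123 and 125 and fell in CV from 510.0 and 557 to 166 and 288 (3.69, SE 0.33, adjusted p = 0.000151). Its MGS libraries remained below those of CV at both days. Of 25 synapse-acting and growth factor genes 14 were higher and 5 lower, and the lower ones included the growth factor gene Igf1 (-3.66), which rose in CV. The secreted antagonists Nog, of BMP (3.58), and Wif1, of Wnt (3.05), rose in MGS and fell in CV, as did the receptor gene Notch1 (2.68, corrected 1.67). Of the lists these belong to, TGF-beta and BMP response genes had 13 higher and 5 lower of 25. Notch and Wnt genes had 12 higher and 10 lower of 27, against 28.7% and 31.6% of all genes. The versican gene Vcan was higher at 2.21 but at 0.67 in the fit corrected for length and GC (adjusted p = 0.0527).

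Most cholesterol synthesis genes fell in CV, and many of them rose in MGS. Of 25 tested of 26 listed, 14 rose in MGS and 22 fell in CV, and 20 were called higher and 1 lower, the latter being Ebp (-0.74). The median interaction was 1.61, and after the length and GC correction 24 were higher and 0 lower (median 1.63). Hmgcs1, an early enzyme of the pathway (chromosome 13, 119690462 to 119708077, plus strand), rose in MGS from 124 and 122 to 277 and 259. In CV it fell from 538 and 604 to 149 and 178, and the interaction was 2.92 (SE 0.18, adjusted p = 3.03e-05). The 4 groups did not overlap, with CV highest at day 5 and MGS highest at day 32. The sterol transfer gene Stard4 had 3.49 and the lanosterol synthase gene Lss 2.83, corrected 1.87. The promoters of 16 of 17 of the cholesterol synthesis genes held CCAAT on either strand, against 40.3% of all. So did 25 of 29 cell cycle genes, so CCAAT was not particular to this list. The sterol element TCACNCCAC was in 1 of the 17, against 1.25% of all. Genes of lipid efflux and storage were split, with 8 higher and 12 lower of 24. Among the lower were Apod, apolipoprotein D, which fell in MGS from 555 and 538 to 238 and 216 and rose in CV from 4.76 and 4 to 93.5 and 67.9 (-5.18), the scavenger receptor gene Cd36 (-5.01) and the lipoprotein lipase gene Lpl (-4.10).

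Cell cycle genes fell in both cultures. Of 36 tested 30 fell in MGS and 33 in CV. The interaction was higher for 14 and lower for 8, shares of the list that can be read against 28.7% and 31.6% of all genes. After the length and GC correction the counts were 19 and 6, and with TPM as deposited 27 and 1. Without MGS day 32 replicate 2 they were 9 and 4, without MGS day 5 replicate 1 the lower count was 4, and without MGS day 5 replicate 2 the higher count was 9. Mki67, the proliferation marker, fell in MGS from 25.9 and 26 to 18.6 and 18.4 and in CV from 61.8 and 83.1 to 22.9 and 26.4 (1.04, SE 0.21, adjusted p = 0.00556). After the length and GC correction its interaction was -0.36 and was called lower (adjusted p = 0.0487, limma), the reverse of the call without it. The survivin gene Birc5 was lower at -1.47, and the kinesin gene Kif11 (1.67) and the centromere gene Cenpf (1.89, corrected 0.43) were higher. The p53 targets were split, 9 higher and 9 lower of 22, with the receptor gene Eda2r at 2.22 and the growth inhibitor genes Btg2 at -2.01 and Sesn1 at -1.58. Without any 1 of the 4 MGS libraries only 4 or 5 p53 targets were higher, and with TPM as deposited 12 were higher and 2 lower. Ependymal and motile cilia genes rose in both cultures, 16 of 17 in MGS and 14 in CV, with 6 interactions higher and 6 lower, and the summed level was 854 to 879.9 and then 1889.5 to 1938 in MGS, and 192 to 228 and then 439.9 to 612 in CV. Hydin, a protein of the ciliary axoneme, rose in MGS from 1.01 and 1.16 to 9.81 and 10.8 and was at most 0.0231 in any CV library (2.42, corrected 0.88).

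Most markers of other brain and meningeal cells fell in MGS between the days. Cldn5, the claudin of brain endothelium, went from 25.4 and 24.9 in MGS at day 5 to 0.0435 and 0.0877 at day 32, with at most 0.0875 in any CV library. Cldn5 and 3 other endothelial markers (Pecam1, Emcn and Tie1) passed the filter on low values through MGS at day 5 alone, so their negative interactions follow from the filter and no test of them is given. Of 16 endothelial markers 12 were lower and 1 higher, and 12 fell in MGS, those 4 included. Both counts of 12 therefore rest in part on the filter. The adhesion molecule gene Pecam1 went from 6.55 and 5.98 to 0.0561 and 0.0566, and the transcription factor gene Sox18, which passed the filter in more groups, fell in MGS (-4.13). The marker called higher was the receptor gene Kdr (2.43). Mbp, myelin basic protein, fell in MGS from 299.9 and 307 to 66.6 and 59.9 and rose in CV from 1.82 and 1.85 to 14.4 and 14.2 (-4.68, SE 0.13, adjusted p = 2.55e-06). Of 16 oligodendrocyte markers 11 were lower, 2 higher and 12 fell in MGS. Of the 16, 3 (Enpp6, Fa2h and Opalin) passed the filter through MGS at day 5 alone, so these counts may rest in part on it. The myelin adhesion gene Mag (-3.01) and the claudin gene Cldn11 (-2.02, corrected -1.34) were lower and fell in MGS. With the length and GC correction 7 markers were lower and 3 higher. Precursor markers differed, with 6 of 11 higher and 1 lower, and among the higher was the membrane protein gene Lhfpl3, which rose in MGS from 9.33 and 10.2 to 38 and 39.6 (2.68). Ttr, the thyroxine carrier made by the choroid plexus, fell in MGS from 13330.0 and 17945 to 1489 and 1465, with 109 and 89.4 at day 5 and 111 and 69.6 at day 32 in CV (-3.23, SE 0.36, adjusted p = 0.000419). Of 14 choroid plexus markers 11 fell in MGS, 8 were called lower and 3 higher, the water channel gene Aqp1 (-1.77) and the BMP antagonist gene Sostdc1 (-1.62, corrected -1.05) among the lower, the latter not called with TPM as deposited (-0.87, adjusted p = 0.0888). Summed levels of these lists follow with those of the meningeal markers.

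Collagen and fibrous matrix genes had 11 higher and 14 lower of 32, and 6 and 20 after the length and GC correction, with the basement membrane collagen gene Col4a1 at -2.31. Only 6 or 7 collagen list genes were higher without CV day 5 replicate 2, MGS day 5 replicate 1 or either MGS library of day 32, and with TPM as deposited 14 were higher and 7 lower. Matrix proteases and their inhibitors had 6 higher and 10 lower of 23. The counts of both lists are to be read against 28.7% higher and 31.6% lower of all genes. The macrophage elastase gene Mmp12 (-5.22) and the inhibitor gene Timp1 (-4.18) both fell in MGS and rose in CV. Meningeal fibroblast markers had 19 of 23 genes lower and 1 higher (median -1.44). Col3a1, a fibrillar collagen gene, fell in MGS from 685 and 673 to 214 and 219 and rose in CV from 5.19 and 4.24 to 59.9 and 73.3 (-5.21, SE 0.18, adjusted p = 3.53e-06). Dcn, decorin, fell in MGS from 894 and 906 to 463 and 429 and remained above every CV library (-3.08), and the imprinted growth factor gene Igf2 had -2.81. The marker called higher was Nov (1.90). With TPM as deposited 12 meningeal markers were lower, as were 3 choroid plexus markers, 7 oligodendrocyte markers and 8 endothelial markers. The summed level of the list was 16574 to 18409 in MGS at day 5, 12987 to 13060.1 in MGS at day 32, 9175 to 15146 in CV at day 5 and 11454 to 19079 in CV at day 32, so that the summed level of the CV groups overlapped between the days. In MGS the summed endothelial markers were 381 to 389 at day 5 and 208 to 218 at day 32, and in CV 72.9 to 73.5 and 114 to 135. Summed oligodendrocyte markers were 1743 to 1765 and then 917 to 925 in MGS, and 101 to 118 and then 178 to 205 in CV. Summed choroid plexus markers were 13987 to 18685 and then 1834 to 1863 in MGS, and 175 to 188 and then 137 to 191 in CV. All 3 sums were therefore lower in MGS at day 32 than at day 5, and the first 2 were higher in CV at day 32 than at day 5. Pericyte markers summed to 365 to 377 in MGS at day 5 and 171 to 179 at day 32, with 6 of 9 lower, such as the aminopeptidase gene Anpep (-3.74) and the vitronectin gene Vtn (-2.72, corrected -1.82), and 2 higher, among them the proteoglycan gene Cspg4 (2.07, corrected 1.20). The part of these other cell types in the results above was not tested. The summed neuron markers lay between 188 and 330.5 in all libraries. Of 17 neuron markers tested 5 were higher and 5 lower, against 28.7% and 31.6% of all genes. Of the 17, 2 (Rbfox3 and Slc32a1) passed the filter through MGS at day 5 alone, so the lower count may rest in part on it. The microtubule protein gene Map2 (2.23, corrected 1.38) and the synapsin gene Syn2 (1.98) were higher and Stmn2 lower (-1.23), though not called with TPM as deposited (-0.43, adjusted p = 0.0966). In that setting 8 neuron markers were higher and 1 lower.

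Contractile, early response and metal-handling genes gave smaller or mixed interactions. Of 29 smooth muscle and SRF/MRTF genes 17 were lower and 4 higher, with a median of -0.75 that became 0.032 with quantile normalization, where 10 were lower and 11 higher. Without CV day 32 replicate 2, 8 were higher. Actg2, the enteric smooth muscle actin, fell in MGS from 42.1 and 37.4 to 7.28 and 9.23 and rose in CV from 7.67 and 6.77 to 96.8 and 68.1 (-5.47, SE 0.27, adjusted p = 1.24e-05), and the tropomyosin gene Tpm2 had -3.80 and the myosin light chain gene Myl9 -2.42, corrected -1.21. YAP/TAZ targets had 10 higher and 4 lower of 23, with Crim1 (2.57), Wwc1 (1.77) and the phosphatase gene Ptpn14 (1.56, corrected 0.35) among the higher. With TPM as deposited 16 were higher and 2 lower. Focal adhesion and integrin genes had 11 higher and 5 lower of 24, with the integrin gene Itgb5 at -1.82, and the median of 0.23 became -0.11 after the length and GC correction, with 8 higher and 10 lower. Only 6 or 7 were higher without any 1 of the MGS libraries or CV day 5 replicate 2, 8 were lower without CV day 32 replicate 1, and 16 were higher with TPM as deposited. Among immediate early genes 14 of 24 were lower and 4 higher (median -0.87). Junb fell in MGS from 1168 and 1045 to 536 and 624 and rose in CV from 91.7 and 70.9 to 457 and 363 (-3.26), and the RNA-binding protein gene Zfp36 had -4.10. The nuclear receptor gene Nr4a3 went the other way (4.15). Of 19 NRF2 targets and metallothioneins 2 were higher and 6 lower, against 28.7% and 31.6% of all genes. The ferritin genes Fth1 (-3.20) and Ftl1 (-2.58, corrected -1.32) and the heme oxygenase gene Hmox1 (-2.13, corrected -1.19) were lower, the ferritin genes at -1.48 and -0.62 with quantile normalization. Glycolysis and hypoxia genes had 6 higher and 7 lower of 26, to be read against the same shares. The lactate transporter genes moved apart, Slc16a3 at -3.63 and Slc16a1 at 2.22. ATF4 and unfolded protein response genes had 3 higher and 9 lower of 24, with the serine synthesis gene Psat1 at 1.84, the transcription factor gene Xbp1 at -2.09 and the chaperone gene Sdf2l1 at -2.13, corrected -0.92. After the length and GC correction the ATF4 list had 9 higher and 8 lower, the NRF2 list 8 and 5 and the glycolysis list 10 and 6, and the medians of the ATF4 and NRF2 lists turned from -0.46 and -0.16 to 0.11 and 0.22. Without CV day 32 replicate 2 the ATF4 and glycolysis lists each had 14 lower, and without either MGS library of day 32, or MGS day 5 replicate 2, the ATF4 list had 5. These 3 lists therefore had no settled direction.

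Of 32 ribosomal protein genes 31 were called lower, but 16 lower and 1 higher with quantile normalization, with a median change of -1.18 in MGS and 0.70 in CV. Rps14 (-2.40, corrected -1.15) and Rplp1 (-2.29, corrected -1.01) were the lowest, the call of Rplp1 being lost in 4 of 8 fits without 1 library and with quantile normalization (-0.64, adjusted p = 0.0656). Rps24 fell in MGS from 1327 and 1222 to 566 and 486 and rose in CV from 941 and 848 to 2128 and 1294 (-2.17, SE 0.34, adjusted p = 0.00202). After the length and GC correction 28 were lower and the median moved from -1.79 to -0.83, and with quantile normalization it was -0.54. The nuclear genes of oxidative phosphorylation, with 12 of 30 lower and 1 higher (median -0.80), had a median of 0.058 after it, with 9 higher and 1 lower. Its lower calls numbered 25 without CV day 32 replicate 2, 4 and 2 without either MGS library of day 32, 3 without either of day 5 and 4 without CV day 5 replicate 2, so that this list shows no settled direction. The subunit genes Ndufa1 (-1.47, corrected -0.57), Ndufa2 (-1.88, corrected -0.71) and Cox6c (-1.39) each lost their call in some fits without 1 library, and Cox6c was at -0.12, adjusted p = 0.427 with quantile normalization. Rps27, a short ribosomal protein gene with near-identical copies, is on none of the lists and had the largest positive interaction by value (8.27, SE 2.60, adjusted p = 0.029). It stood at 19.5 and 18 at day 5 and 1031 and 889 at day 32 in MGS and 7.86 and 1008 at day 5 and 16.6 and 11.6 at day 32 in CV, so the replicates of CV at day 5 lay far apart, and the call was lost in 4 of 8 fits without 1 library.

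**Figure D3:**
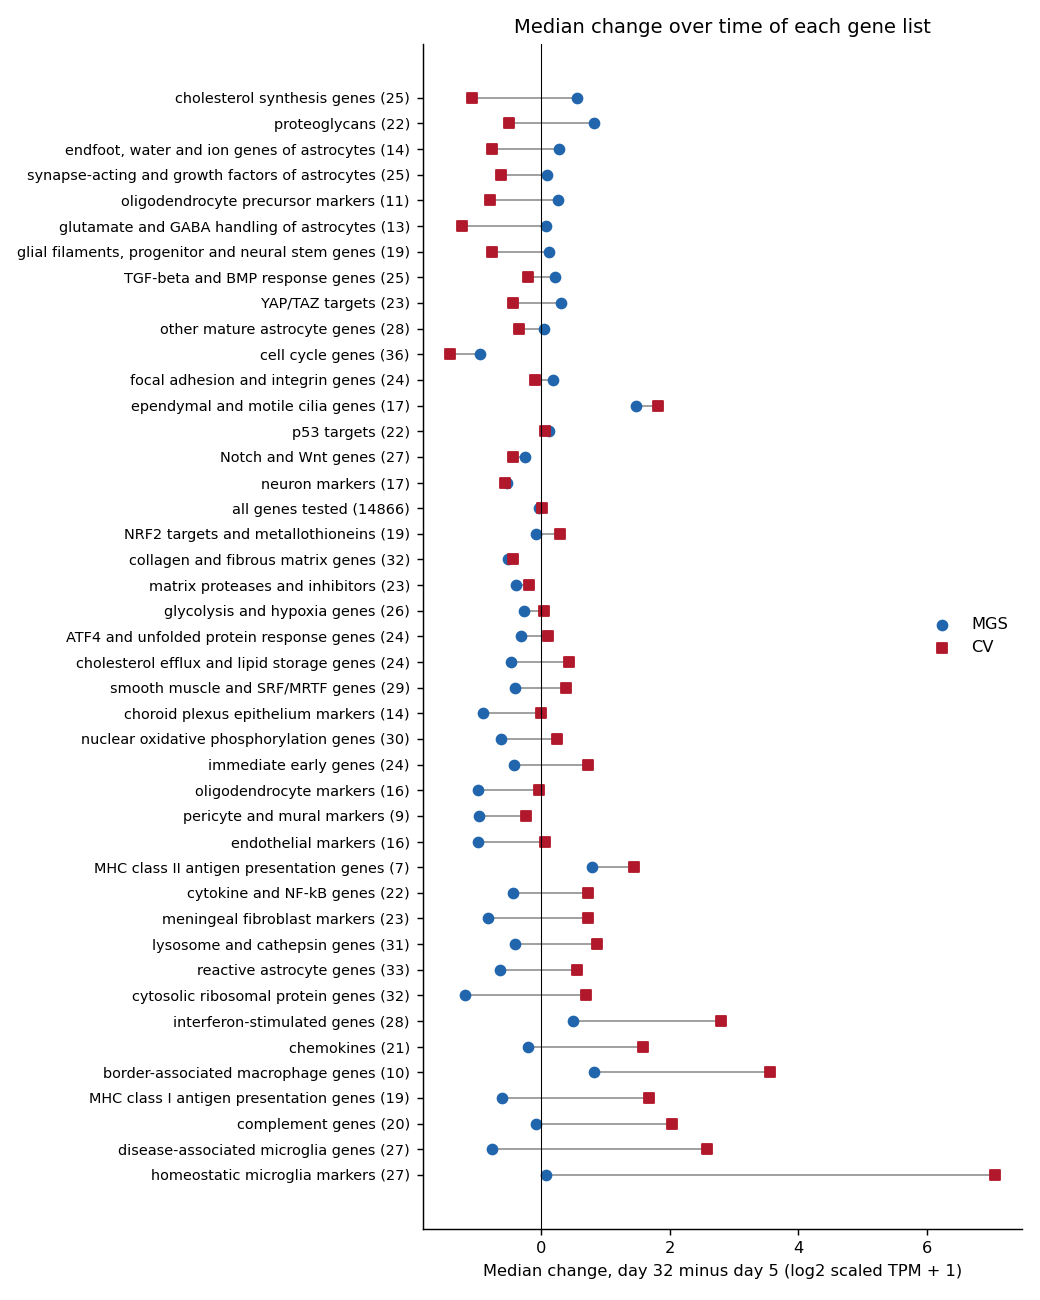
Median change from day 5 to day 32 of the tested members of 42 gene lists (number in brackets) and of all genes, in MGS (blue circles) and CV (red squares), on the log2(scaled TPM + 1) scale; lists are ordered by their median interaction. Homeostatic microglia markers are at 0.08 in MGS and 7.05 in CV, and cholesterol synthesis genes at 0.56 and -1.06.

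The interaction moved with transcript length over all genes. Among the shortest eighth of the 14761 genes with a known length the median interaction was -0.95, and it rose through the eighths to 1.10 in the longest. The share called higher went from 7.37% to 70.5% and the share called lower from 55.8% to 6.4%. The trend ran in opposite directions in the cultures. The median change over time went from -0.40 to 0.55 in MGS and from 0.53 to -0.53 in CV. By library, the median deviation of the longest eighth minus that of the shortest was -1.24 and -0.34 in CV at day 32 and 0.67 and 0.71 in MGS at day 32, and it ranged from -0.28 to 0.59 at day 5. With length and GC content corrected in each library, the medians of the eighths lay between 0.025 and 0.11, and 4703 genes were called higher and 4079 lower. Of the 148 genes of the naming rule 31 had an interaction smaller by over 1.5 times or reversed, and 0 a larger one. Of the calls made without the correction 71.8% remained called, and 6270 of those 6441 genes kept their sign. Whether the length trend reflects the cells or the libraries was not tested.

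**Figure D4:**
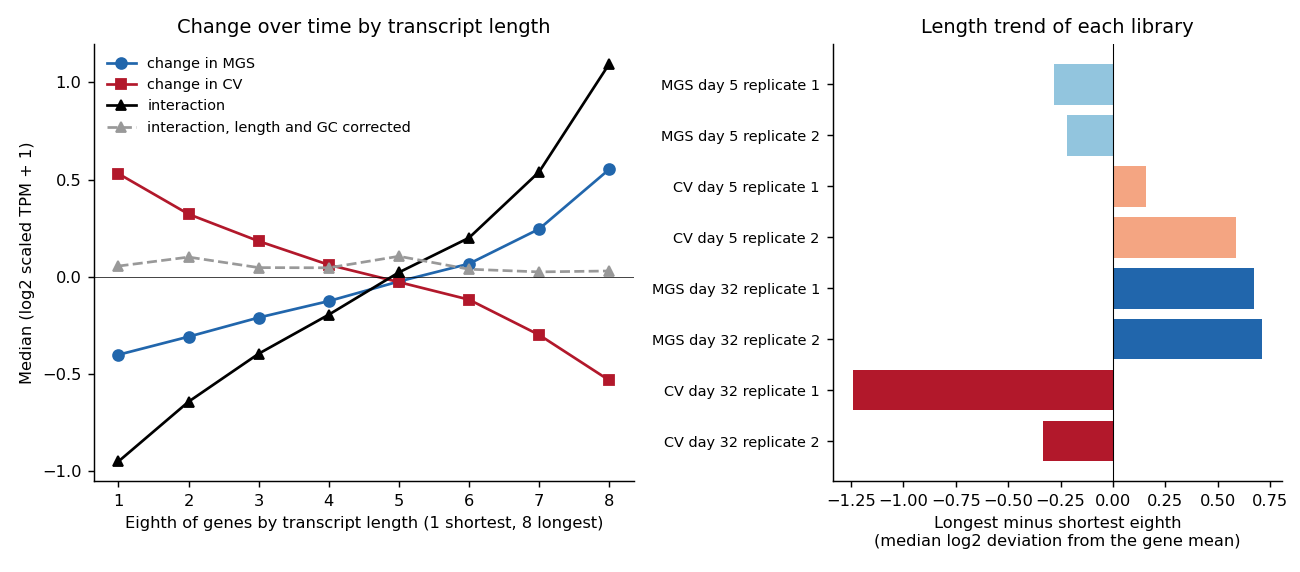
Left, median change from day 5 to day 32 in MGS and in CV and median interaction, with and without the length and GC correction, for genes in eighths of transcript length, on the log2(scaled TPM + 1) scale; right, for each library, the median deviation from the gene mean of the longest eighth minus that of the shortest. The interaction rises from -0.95 to 1.10, and CV at day 32 replicate 1 has the lowest value by library, -1.24.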

How the data were processed

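RNA of 8 libraries of mouse astrocytes was sequenced. The tools that the submitters' processing notes list are StringTie 1.3.4d, HISAT2 2.1.0 and bcl2fastq, beside the builds hg38 and mm10 with no roles; the annotation, the strand setting and any filter are not given in the sources used here. The deposited library files give, per gene, coverage (mean depth per base), FPKM and TPM, all made by the authors, and the deposited series table gives TPM for 23401 gene IDs. In that table each gene ID holds the value of its last row in the library files, within 1e-05 TPM. Aligned gigabases were estimated for each library as the median ratio of deposited coverage to FPKM over expressed genes. Between 76.9% and 78.2% of the gene rows used lay at that ratio.

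The TPM values were divided by median-of-ratios size factors over 14499 genes, and log2(scaled TPM + 1) was fitted with 4 group means in limma 3.58.1 (R 4.3.3, variance trend, 4 residual degrees of freedom), with Benjamini-Hochberg adjustment over the 14866 genes with at least 1 TPM in at least 2 libraries. In 2 against 2 libraries no exact permutation test of a single gene was made. The length and GC correction removed, in each library, a spline on transcript length and GC content, which come from GENCODE M21 (GRCm38) for 14761 genes. Promoters and motifs came from RefSeq (GRCm38.p6). The fit was tested on simulated data of 14866 genes, of which 100 were changed by 1 and 100 by 2 on the log2 scale. Of these 43% and 77% were recovered, and 0.0546% of unchanged genes were called. The simulated spreads were shuffled among genes and equal in the 4 groups. In the data 60.3% of genes were called, and replicates differed most in CV at day 32. The simulated rates therefore do not measure the recovery or false calls of the reported fit.

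Genes named are, among called genes with a highest group mean of at least 5 scaled TPM and the same sign for each of the 16 choices of 1 library per group, the 15 largest interactions each way, the 6 largest in each class of opposite changes and up to 3 members of each of 42 gene lists, leaving out model names, plus 16 astrocyte, myeloid, contractile and proliferation genes named in any case. Other genes are exceptions or list members named after their values were seen. The members, lists and rules were chosen with earlier results of these data known. The labels used here do not say whether replicate numbers pair the libraries, and the main fit did not pair them. Alternatives were FPKM, TPM as deposited, quantile normalization, the length and GC correction, other pseudocounts and filters, weights per group, no variance trend, summed rows of a gene ID, the replicate block and leaving out each library. Some genes that the rule chose are not reported here.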

Additional observations from a re-analysis of the deposited data

Results flagged for a closer look

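Effects of time that differ between the cultures by a test of the difference itself are listed here as counts from the limma interaction term, at an adjusted p under 0.05. The change over time was greater in MGS than in CV for 4267 genes and smaller for 4699 genes. The culture difference was called lower in MGS at day 5 and higher at day 32 for 903 of these genes. For 951 genes it was called higher in MGS at day 5 and lower at day 32.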

How the results depend on the processing

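Counts of genes called higher and lower stayed within 1.5 times those reported under FPKM, quantile normalization, both pseudocounts, both filters, weights per group, no variance trend, summed rows and the length and GC correction. With TPM as deposited 7395 genes were higher and 1831 lower, 2217 rose in MGS and fell in CV and 264 did the reverse; this setting leaves out the size factors, and 68% of the calls were shared. Leaving out 1 library gave 3175 to 5146 higher, 3274 to 5725 lower, 525 to 2188 that rose in MGS and fell in CV and 312 to 2433 that did the reverse. The extremes of the last 2 ranges are without MGS day 5 replicate 1 and without CV day 32 replicate 2. With TPM as deposited Gfap was at 0.57, Aldh1l1 at 0.074, Vim at 0.41, Acta2 at 0.33 and Ctgf at 0.55. With the length and GC correction, with and without the replicate block, Gfap was at 0.24, Nes at -0.032, Acta2 at 0.034, Ctgf at 0.031 and Mki67 at -0.36. Mki67 was called lower without the block (adjusted p = 0.0487, limma) but not with it (adjusted p = 0.0608, limma). With quantile normalization Gfap was at 1.15, Vim at 1.59, Acta2 at 0.56 and Ctgf at 0.53. The cause of these changes was not tested. Same-numbered replicates deviated with correlations of -0.13 to 0.44 between groups, the highest between CV at day 5 and CV at day 32. These values cannot settle whether the numbers pair the libraries. The replicate block gave 4426 higher and 4953 lower, and 4751 and 4202 with the length and GC correction. With the block Slc1a3 was called higher (0.61, adjusted p = 0.0396, limma), and with the block and the correction H2-DMa was not called (-0.41, adjusted p = 0.0556, limma). The interaction of a gene near 0 in some group also changed in size with the pseudocount, as given for Slc6a11 and Tnf. Precision is limited by 2 libraries a group, and TPM gives no counting error.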
